A study of Mus musculus with 6 samples.

Results

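Complement genes were examined as a group of 9 members, C1ra, C1s1, C2, C4b, C3, Cfb, Serping1, Cd55 and Cd59a, which were given by symbol and matched to the 41388 Ensembl genes counted in RNA-seq of mouse mammary tumor cells. All 9 members had an entry. Of these, 8 passed the filter on low counts, and Cfb did not. The samples came from mammary tumors of female FVB/N-TgN(MMTVPyVT)634Mul/J mice aged 12 weeks, which carry the polyoma middle T oncogene driven by the mammary tumor virus (MMTV) promoter. Both groups carried this transgene, received no treatment and were sorted as viable CD45- cells. Tumor-initiating cells (TICs) were CD24+CD90+CD45- cells (n = 3), and the comparison group was the remaining CD45- tumor cells, the non-CD24+CD90+ population (n = 3), here called the other tumor cells. Cells of 4 sorts were pooled for each sample, and p-values measure the spread between these pooled samples. Both groups may have been sorted from the same mice, and the labels do not say which samples share them. The series design names the comparison group as negative for CD24 and for CD90, whereas the methods also include cells with a single marker.

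Complement is a cascade of plasma and membrane proteins that marks cells and microbes for removal. The classical pathway starts when C1q binds a surface and activates the proteases C1r and C1s. C1s then cleaves C4 and C2 to form a C3-cleaving enzyme. The alternative pathway builds a second such enzyme from C3 and factor B, the product of Cfb. C1 inhibitor, made from Serping1, stops C1r and C1s, while the membrane proteins CD55 and CD59 protect host cells by breaking down the C3-cleaving enzymes and by blocking the pore of the terminal proteins. The liver makes most plasma complement, and fibroblasts, macrophages and epithelial cells make several components locally.

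Several members share sequence with other genes, which bears on how their values can be read, so these stretches are given first. C1ra has a close paralog, C1rb, on chromosome 6. In GENCODE M21 transcripts their longest run of identical bases was 757 bases, and 48.0% of the 50-base words of C1ra occurred in C1rb. Reads that did not map uniquely had been removed, so reads lying wholly within such stretches were lost for either gene. The read length is not given in the sources used here, and reads that reach past a shared stretch could still be counted. The first 60 bases past the identical run are shown, all within the coding sequence, with the 2 bases that differ in capitals.
C1ra: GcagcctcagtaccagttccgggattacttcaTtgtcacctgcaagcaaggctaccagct
C1rb: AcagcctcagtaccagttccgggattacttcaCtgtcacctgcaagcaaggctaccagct

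C1s1 and its paralog C1s2 shared a run of 229 bases, and 35.1% of the 50-base words of C1s1 were found in other genes, C1s2 and Gm16567. Gm16567 lies at the same locus on the opposite strand. Its exons covered 18.4% of the exonic bases of C1s1, and it had 0 counts in all 6 samples. The 60 bases after the run shared with C1s2 held 3 differences, again in capitals and within the coding sequence.
C1s1: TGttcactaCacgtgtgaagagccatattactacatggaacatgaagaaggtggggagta
C1s2: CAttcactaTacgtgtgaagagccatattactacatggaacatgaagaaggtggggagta

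For C4b, which encodes complement C4, the longest run shared with C4a was 433 bases, and 34.6% of its 50-base words were shared. The next 60 bases differed at 1 position.
C4b: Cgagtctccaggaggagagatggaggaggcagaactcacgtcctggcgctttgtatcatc
C4a: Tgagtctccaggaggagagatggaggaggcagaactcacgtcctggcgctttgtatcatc

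C3 and Serping1 shared no 50-base word with another gene, Cd59a shared 3.9% and Cd55 9.1% of theirs. C2 and Cfb both overlap a further annotated gene on the same strand, Gm20547 (GRCm38, chr17:34856412-34882042). Its exons covered 42.8% of the exonic bases of C2 and 79.5% of those of Cfb. Gm20547 itself had 0 counts in all 6 samples. Reads that fall in exons of overlapping genes are left out by the usual setting of HTSeq, although the setting used is not given in the sources used here.

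**Figure D1:**
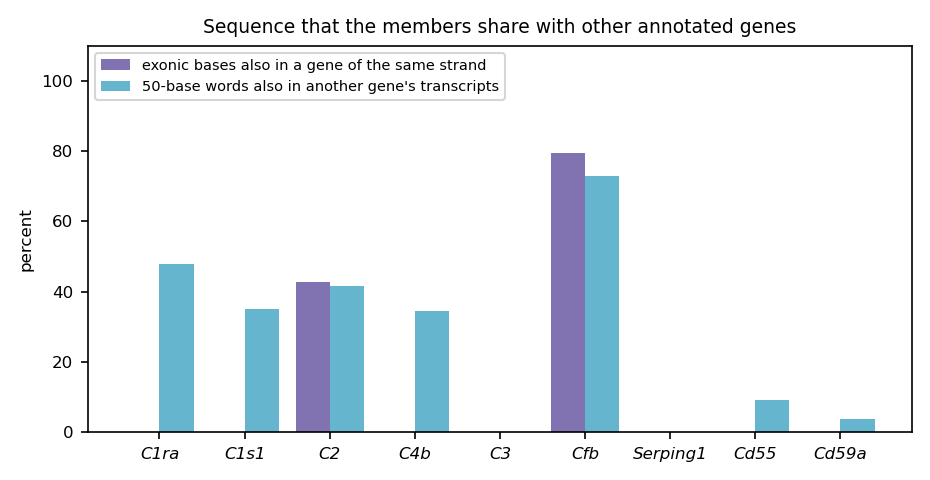
Percent of each member's exonic bases that lie in exons of another gene on the same strand (purple) and percent of its 50-base transcript words found in another gene (blue). Cfb shared 79.5% of its bases and C2 42.8%, C1ra shared 48.0% of its words, and C3 and Serping1 shared none.

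Promoter sequences from RefSeq (GRCm38.p6) were at hand for 5 of the 9 members, in 6 entries of 300 bases. They are shown for C1ra and C1s1, the paired proteases of the C1 complex, and for C3, the central component, as the 250 bases before the RefSeq start, which for C1ra lies inside the GENCODE gene. They were searched on both strands for GGG and TTTCC separated by any 2 bases (an NF-kB motif), TTCNNNGAA (the GAS motif of STAT factors) and TTGNGNAAT (a C/EBP motif), and matches are in capitals.
C1ra (chr6:124512371-124512620, + strand): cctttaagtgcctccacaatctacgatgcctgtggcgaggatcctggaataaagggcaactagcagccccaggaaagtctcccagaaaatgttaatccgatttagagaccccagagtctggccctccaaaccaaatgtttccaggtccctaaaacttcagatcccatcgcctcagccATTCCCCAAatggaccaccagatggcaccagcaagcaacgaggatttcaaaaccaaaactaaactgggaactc
C1s1 (chr6:124542360-124542609, - strand): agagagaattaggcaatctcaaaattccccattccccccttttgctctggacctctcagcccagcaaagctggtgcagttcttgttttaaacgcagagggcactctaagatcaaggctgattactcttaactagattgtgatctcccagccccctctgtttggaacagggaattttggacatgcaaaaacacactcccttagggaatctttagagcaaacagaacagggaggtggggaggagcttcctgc
C3 (chr17:57228137-57228386, - strand): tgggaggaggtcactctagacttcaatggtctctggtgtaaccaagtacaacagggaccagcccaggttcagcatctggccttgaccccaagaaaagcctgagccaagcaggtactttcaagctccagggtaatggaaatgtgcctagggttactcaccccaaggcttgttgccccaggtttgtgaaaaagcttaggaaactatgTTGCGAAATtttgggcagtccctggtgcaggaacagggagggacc

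The C/EBP letters were found in C1ra, between 73 and 65 bases before the start, and in C3, between 45 and 37 bases before it. They occur in 2.87% of 32851 mouse promoters of the same length. C1ra also held the GAS letters just after the start, a motif present in 8.30% of promoters. The NF-kB letters, present in 1.63% of promoters, were in none of the 6 entries.

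The total count per sample was between 6781239 and 9100552, and 3 counts corresponded to 0.33 to 0.44 CPM (counts scaled to a common library size with TMM factors). The members together took 0.0576% to 0.0743% of the counts in the other tumor cells and 0.0854% to 0.115% in TICs. The genes of the sort markers overlapped between the groups. Cd24a had 315 to 440 CPM in TICs and 402 to 602 CPM in the other tumor cells, and Thy1, the gene of CD90, had 70.3 to 207 CPM and 21.6 to 75.9 CPM. All 10 genes of an epithelial list passed the filter, and their summed level was 6186 to 6462 CPM in the other tumor cells and 4011 to 4710 CPM in TICs. None of the 10 was called by exactTest at an adjusted p below 0.1, where 1.55% of all tested genes were. An unadjusted p below 0.05 was reached by 2, against 7.85% of all genes. DESeq2 called 2 (2.51% of all genes) and the quasi-likelihood test 0 (0.410%). A positive log2 fold change was seen in 0 of the 10, against 49.7% of all genes, and the median was −0.387. Every TIC sample lay below every sample of the other group for 5 of the 10 and for 7.55% of all genes. A bulk measurement cannot separate fewer cells of a type from less RNA per cell.

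TICs and the other tumor cells were compared to ask whether complement expression differs between them. Serping1, C4b and C1ra had higher values in every TIC sample than in any sample of the other tumor cells, by 2.37-, 2.0- and 2.94-fold. None of the 8 members tested passed an adjusted p-value of 0.1 in edgeR's exactTest, where 1.55% of all 12192 tested genes did and 1.36% were called higher in TICs. At an unadjusted p below 0.05, 4 of the 8 members were counted, all higher in TICs, against 7.85% of all genes in either direction and 4.74% higher in TICs. DESeq2 called 1 member, C4b, higher in TICs, with 2.51% of all genes called and 1.89% higher, and edgeR's quasi-likelihood test called 0, with 0.410% of all genes. In 7 of the 8 members the log2 fold change was positive, as in 49.7% of all genes, with a median of 0.93 beside −0.01 over all tested genes. Every TIC sample lay above every sample of the other group for 3 members and for 7.69% of all tested genes. The reverse held for 0 members and for 7.55% of genes.

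**Figure D2:**
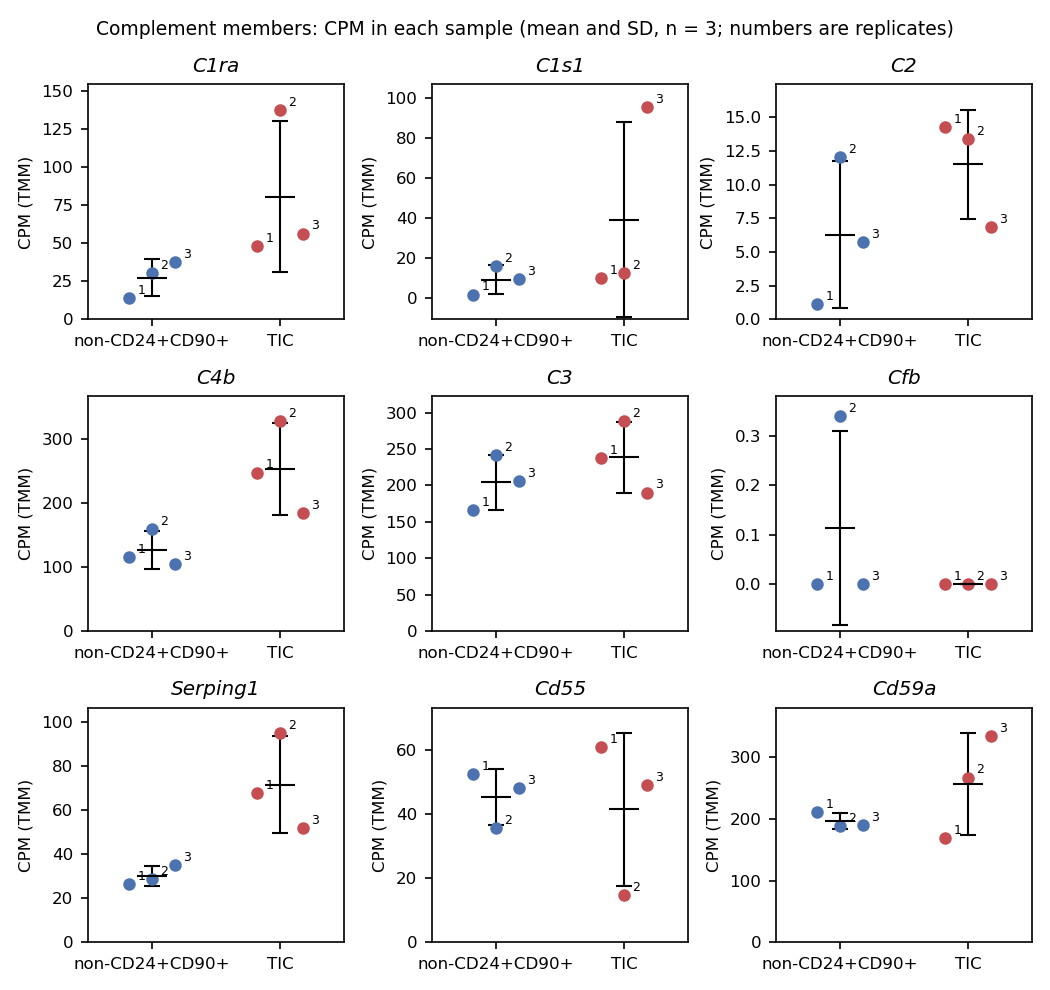
CPM (TMM-normalized) of the 9 members in each sample on linear axes, with the other tumor cells in blue and TICs in red; bars give the mean and SD (n = 3) and numbers the replicate. The groups do not overlap for C1ra, C4b and Serping1, whereas C1s1 is set apart by TIC replicate 3 at 95.5 CPM.

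The proteases of the C1 complex stand at the start of the cascade. C1ra (ENSMUSG00000055172, chr6:124512405-124523443) had 13.9, 30.6 and 37.8 CPM in replicates 1 to 3 of the other tumor cells and 47.9, 137.6 and 56.3 CPM in TICs. The groups did not overlap, and TIC replicate 2 was far above the other TIC samples. The mean was 27.4 ± 12.3 CPM in the other tumor cells and 80.6 ± 49.5 CPM in TICs (SD, n = 3). On the log2 scale the difference was 1.56 ± 0.53 (standard error), and exactTest gave an adjusted p-value of 0.19. With 1 sample left out the adjusted p-value ran from 0.066 (without TIC replicate 1) to 0.87 (without TIC replicate 2, where the log2 fold change was 0.93). The quasi-likelihood test gave an adjusted p-value of 0.37, and DESeq2 gave 0.15. An exact permutation test of the 6 samples gave p = 0.1, the smallest that 3 samples against 3 allow.

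C1s1 (ENSMUSG00000038521, chr6:124530345-124542359), which encodes the protease that cleaves C4 and C2, had 1.75, 16.1 and 9.58 CPM in the other tumor cells. The TIC samples had 10, 12.6 and 95.5 CPM. Replicates 1 and 2 lay within the range of the other group, and replicate 3 stood far above it. The log2 fold change was 2.10 ± 0.93 (standard error; exactTest, adjusted p = 0.54) and was 0.32 without TIC replicate 3.

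The paralogs of both proteases were also counted. C1rb had 0, 0.45 and 5.01 CPM in the other tumor cells and 5.06, 4.66 and 62.2 CPM in TICs. C1s2 had 0, 7.60 and 1.29 CPM in the former and 3.63, 8.74 and 33.7 CPM in the latter. TIC replicate 3 was thus the highest sample for C1s1, C1rb and C1s2, but not for C1ra. In this sample C1rb took 52.4% of the reads assigned to C1ra and C1rb together, against 0% to 11.7% in the other 5 samples. The sum of C1ra and C1rb was 13.9 to 42.8 CPM in the other tumor cells and 53.0 to 142.2 CPM in TICs. How far the removal of shared reads altered this split was not tested.

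**Figure D3:**
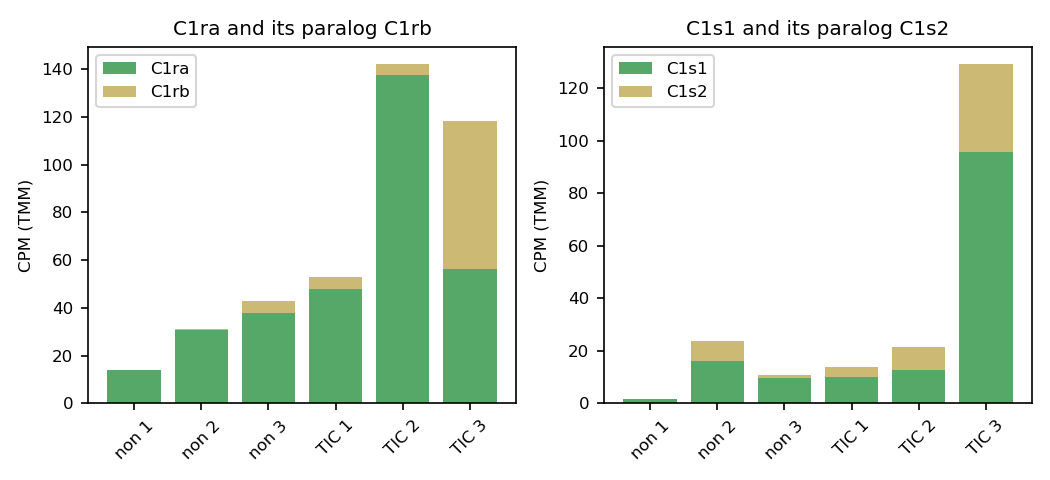
CPM (TMM-normalized) of C1ra with C1rb (left) and of C1s1 with C1s2 (right) as stacked bars for each sample, "non" being the other tumor cells. C1rb took 52.4% of the pair in TIC replicate 3 and at most 11.7% elsewhere, and the C1s pair reached 129.2 CPM in TIC replicate 3 and at most 23.7 CPM elsewhere.

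C4b (ENSMUSG00000073418, chr17:34728380-34743882) encodes C4, the first substrate of the classical and lectin pathways. It had 115.0, 160 and 105 CPM in the other tumor cells and 248, 328 and 184 CPM in TICs, with no overlap. The means were 127 ± 29.2 and 253 ± 71.98 CPM (SD, n = 3). The log2 fold change was 1.0 (standard error 0.33), and the adjusted p-value 0.14 in exactTest, 0.26 in the quasi-likelihood test and 0.044 in DESeq2. With 1 sample left out it ran from 0.031 (without TIC replicate 3) to 0.65 (without replicate 3 of the other tumor cells). Its paralog C4a had at most 16 counts in a sample, so that at most 0.705% of the reads assigned to the pair were given to C4a.

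C2 (ENSMUSG00000024371, chr17:34862604-34898265), the protease partner of C4, was low and variable. It had 1.17, 12.03 and 5.72 CPM in the other tumor cells and 14.3, 13.4 and 6.86 CPM in TICs, so the groups overlapped. The log2 fold change was 0.87 (standard error 1.24), and its 95% interval, from −1.55 to 3.29, covers differences of either sign.

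C3 (ENSMUSG00000024164, chr17:57203970-57228136), on which all pathways converge, was abundant, and its groups overlapped. It had 166, 241 and 206 CPM in the other tumor cells and 237, 288 and 190.0 CPM in TICs. The log2 difference of 0.22 ± 0.31 (standard error) had an adjusted p-value of 1 in exactTest, with a 95% interval from −0.38 to 0.82. The coefficient of variation was 18.5% and 20.6% in the respective groups.

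Cfb (ENSMUSG00000090231, chr17:34856374-34862518), which encodes factor B of the alternative pathway, was counted 3 times in replicate 2 of the other tumor cells and had no count in the remaining samples. It was not tested. The count carries the limit of the exonic bases shared with Gm20547. Over all protein-coding genes, 117 shared at least 75% of their exonic bases with another gene on the same strand, and 94.0% of them had fewer than 10 counts over the 6 samples. Among 20372 protein-coding genes that shared no base, this was 38.3%, and among 985 that shared some bases but under 75%, it was 27.7%. Whether the overlap lowered the count of Cfb was not tested.

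Among the regulators, Serping1 (ENSMUSG00000023224, chr2:84765387-84775444) had 26.4, 28.8 and 35.2 CPM in the other tumor cells. The TIC samples had 67.7, 95.1 and 51.9 CPM, all above the other group. The means were 30.1 ± 4.53 and 71.6 ± 21.9 CPM (SD, n = 3), and the log2 fold change was 1.25 ± 0.45 (standard error; exactTest, adjusted p = 0.24). Serping1 shared no 50-base word with another gene.

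Cd55 (ENSMUSG00000026399, chr1:130439027-130462744), the membrane protein that dismantles C3-cleaving enzymes, had 52.5, 35.6 and 48.1 CPM in the other tumor cells. In TICs it had 60.8, 14.8 and 49.0 CPM. TIC replicate 2 held both the lowest Cd55 and the highest C1ra, C4b, C3 and Serping1 among the 6 samples. The log2 fold change was −0.13 (standard error 0.56), with a 95% interval from −1.22 to 0.96, and was 0.28 without TIC replicate 2.

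Cd59a (ENSMUSG00000032679, chr2:104095801-104115354), which blocks the terminal pore, had 211, 188 and 189 CPM in the other tumor cells and 169, 266 and 333 CPM in TICs. The spread was narrow in the first group, with a coefficient of variation of 6.52%, and 32.3% in TICs, which held both the lowest and the highest sample. The log2 fold change was 0.39 ± 0.32 (standard error; exactTest, adjusted p = 0.98), with a 95% interval from −0.24 to 1.01. Its paralog Cd59b had 21 counts in 1 sample and 0 in the others, and Cd55b, the paralog of Cd55, had 0 in all 6.

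**Figure D4:**
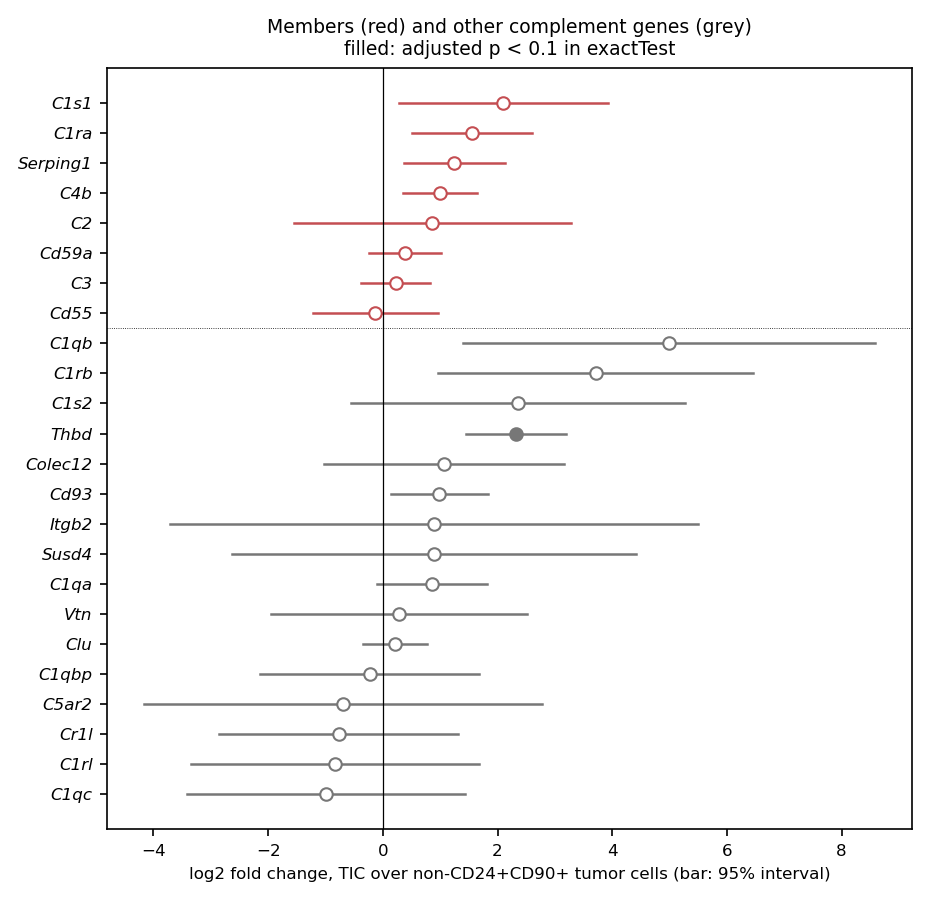
Log2 fold change of TICs over the other tumor cells with its 95% interval (unadjusted) for the 8 tested members in red and 16 other tested complement genes in grey. Of the 24 genes, 1 is filled, Thbd at 2.33, which passed an adjusted p-value of 0.1 in exactTest.

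Per length of exons, the order of the members over all samples was Cd59a, C3, C4b, Serping1, C1ra, Cd55, C1s1, C2 and Cfb. Cd59a reached 108 ± 7.06 CPM per kb in the other tumor cells and 141 ± 45.7 CPM per kb in TICs (SD, n = 3). It was 2.91 times the level of C3, and its lowest sample was above the highest of C3. The levels of C3 and C4b, at 43.0 and 33.4 CPM per kb over the 6 samples, overlapped, and C3 was the higher in 5 of them. From C3 down to C2 the ranges of neighbours in this order overlapped. C4b was above Serping1 in all 6 samples, and C1s1 above C2 in 5. Several neighbours traded places when the share of 50-base words found in other genes was taken off the exon length, an alternative added after the data were seen. C4b, at 51.0 CPM per kb, then stood above C3 at 43.0, C1ra at 34.8 above Serping1 at 21.9, and C1s1 at 11.9 above Cd55 at 9.85. The share taken off C1s1 included words of Gm16567, which overlaps it at the same locus, and the order with paralog words alone was not tested. Cd59a, C2 and Cfb kept their ranks.

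**Figure D5:**
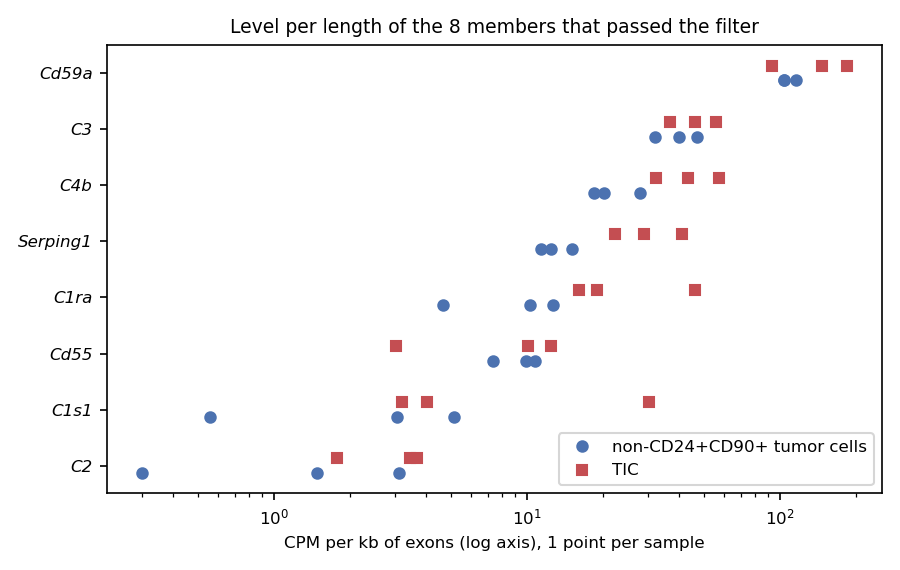
Level of the 8 members that passed the filter as CPM per kb of exons on a log axis, with 1 point per sample, circles for the other tumor cells and squares for TICs. Cd59a lies above all others in every sample, and C1s1 spans 0.56 to 30.5 CPM per kb.

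The patterns over the 6 samples were compared by the root mean square difference of log2 CPM, each gene centred on its own mean. For C4b, the member with the smallest p-value, the closest genes were S100a6 at 0.12, Elk3 at 0.14 and Igfbp6 at 0.15, where the median over 12191 genes was 0.95. Among the members, Serping1 ranked 64 with a difference of 0.28 from C4b, C3 ranked 296 (0.41), Cd59a 1415 (0.58) and C1ra 1793 (0.61). C2 ranked 5046 (0.85), Cd55 7259 (1.11) and C1s1 8865 (1.54). For Cd59a, the most abundant member per length, the closest genes were Rdx at 0.075, Gm12966 at 0.087 and Luc7l3 at 0.091, and no other member ranked above 1723.

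A further 53 complement genes, set down as 5 lists, were looked up in the same fit. Of these, 16 passed the filter and 20 had 0 counts in all samples. One of the 16, Thbd, was higher in TICs, and 0 were lower, by exactTest, DESeq2 and the quasi-likelihood test alike. Over all tested genes exactTest called 1.36% higher and 0.189% lower. Of the 16 genes, 11 had a positive log2 fold change, as had 49.7% of all genes, with a median of 0.87 beside −0.01. Every TIC sample lay above every sample of the other group for 3 of the 16 and for 7.69% of all tested genes. Thbd encodes thrombomodulin, an endothelial receptor of thrombin that also promotes the inactivation of C3b and is best known from coagulation. It had 24.5, 26.9 and 13.7 CPM in the other tumor cells and 68.3, 120.7 and 138.4 CPM in TICs, a log2 difference of 2.33 ± 0.44 (standard error) and exactTest gave an adjusted p-value of 0.00047.

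In the initiation list, 7 of 15 genes were tested and 7 had 0 counts in all samples, among them the lectin pathway genes Masp1, Masp2, Mbl1 and Mbl2. Exons of Tardbp on the opposite strand covered 54.9% of those of Masp2. C1qa, a chain of C1q, had 33.3, 24.2 and 37.5 CPM in the other tumor cells and 79.0, 38.1 and 54.4 CPM in TICs. The groups did not overlap, by a margin of less than 1 CPM, and the adjusted p-value was 0.79 in exactTest. C1qb had 6 counts in 1 sample of the other tumor cells and 0 in the other 2, beside 107, 84 and 17 counts in TICs (adjusted p = 0.47 in exactTest). C1qc overlapped between the groups, with 22, 193 and 67 counts in the other tumor cells and 88, 34 and 29 counts in TICs.

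The alternative pathway genes Cfd and Cfp, C4a and all 7 genes of the terminal list, Hc (the mouse C5 gene), C6, C7, C8a, C8b, C8g and C9, failed the filter. The terminal list summed to 0.57 to 1.86 CPM in the other tumor cells and to 0 to 0.26 CPM in TICs. Among 19 further regulators, 6 were tested. Clu, which encodes the terminal pathway inhibitor clusterin, was the most abundant of these, at 416, 450 and 334 CPM in the other tumor cells and 535, 435 and 419 CPM in TICs (log2 fold change 0.21, standard error 0.28). Cr1l, the rodent membrane regulator Crry, had 15.0, 21.8 and 7.44 CPM in the former and 16.4, 3.50 and 6.07 CPM in the latter.

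Of 9 receptor genes, 3 were tested. C3ar1, the receptor of the C3a fragment, had 26 counts in replicate 1 of the other tumor cells and 0 elsewhere, and C5ar1 had 4 and 15 counts in 2 TIC samples. Cd93, a membrane protein of endothelial and myeloid cells, had 150, 136 and 100.7 CPM in the other tumor cells and 110, 206 and 450.1 CPM in TICs (log2 fold change 0.99, standard error 0.43, adjusted p = 0.46 in exactTest).

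The summed levels of markers of other cell types were also higher in every TIC sample than in any sample of the other tumor cells. The macrophage and adipocyte sums leaned on single genes, Lyz2 and Fabp4, whose values follow. Of 10 fibroblast genes, 9 were tested and exactTest called 6 higher in TICs, where it called 1.36% of all tested genes higher. DESeq2 called 6 and the quasi-likelihood test 4. The fibroblast list summed to 2811 to 3236 CPM in the other tumor cells and 7591 to 10990 CPM in TICs. The pericyte list summed to 575 to 733 CPM in the former and 1015 to 1655 CPM in the latter, with 1 of 10 genes, Rgs5, called. The endothelial list summed to 185 to 203 CPM in the other tumor cells and to 240, 362 and 908 CPM in TICs. The fibroblast, pericyte, endothelial and adipocyte sums were highest in TIC replicate 3, as were C1s1, Cd59a, C1rb, C1s2, Thbd and Cd93, whereas C1ra, C4b, C3 and Serping1 were highest in TIC replicate 2. None of the 10 endothelial genes was called by exactTest, DESeq2 or the quasi-likelihood test, which called 1.55%, 2.51% and 0.410% of all tested genes. All 10 had a positive log2 fold change, against 49.7% of all genes, with a median of 1.19. An unadjusted exactTest p below 0.05 was reached by 5, whereas 4.74% of all genes were higher in TICs at this threshold.

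The macrophage list summed to 81.1 to 96.0 CPM in the other tumor cells and 98.3 to 182 CPM in TICs. Of its 10 genes, 6 were tested, and exactTest called 1, Lyz2, higher in TICs, as it did 1.36% of all tested genes. DESeq2 called 1 (2.51% of all genes) and the quasi-likelihood test 0 (0.410%). Lyz2 had 9.63, 11.8 and 4.29 CPM in the other tumor cells, where the list summed to 93.3, 96.0 and 81.1 CPM. In TICs it had 62.0, 75.3 and 28.0 CPM, of sums of 182, 121 and 98.3 CPM. Only 2 of the 6 tested genes had a positive log2 fold change, and the median was −0.065. Adgre1 and Fcer1g had 0 counts in all samples, and Ptprc, the gene of CD45, had 33 counts in 1 sample of the other tumor cells and 0 in the others. In the adipocyte list Adipoq, Plin1, Lep and Retn had 0 counts in all samples, and Fabp4, which endothelial cells also express, was the only gene called of 2 tested. The adipocyte sum was 70.1 to 142 CPM in the other tumor cells and 195 to 1229 CPM in TICs. The part of these cell types in the complement values was not tested.

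Genes of signals that are known to induce complement were also listed. Of 10 NF-kB and acute-phase genes, 7 were tested and 0 were called, with 0 at an unadjusted p below 0.05 and 0 in DESeq2 and the quasi-likelihood test. Their median log2 fold change was −0.22. Of 10 interferon response genes, all were tested and 0 were called by exactTest, DESeq2 or the quasi-likelihood test, with 0 at an unadjusted p below 0.05 and a median log2 fold change of 0.26.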

How the data were processed

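For the deposited files, the authors used Trimmomatic 0.32 for trimming and STAR 2.4.0 for alignment to GRCm38, removed reads that were not uniquely mapped with SAMtools 1.1 and counted reads per gene with HTSeq. They deposited these raw counts. The annotation release and the strand setting are not given in the sources used here. Each library was made from 120 ng of RNA.

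Groups followed the sample descriptions, and replicates were numbered by sample order only. Symbols, coordinates and exon lengths came from GENCODE M21 (GRCm38), which named 40340 of 41388 genes, the others holding 0.13% of counts. Genes above 1 CPM in at least 3 samples were kept (12192). As in the study, exactTest of edgeR (version 4.0.16 here, under R 4.3.3) was used with Benjamini-Hochberg adjustment over all kept genes and a threshold of 0.1. TMM normalization and tagwise dispersions were chosen here. Standard errors and 95% intervals came from the negative binomial fit. Total counts of 6781239 to 9100552 make 3 counts equal to 0.33 to 0.44 CPM. Scripts were tested on simulated data.

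By rule, values were given for the 9 members, for listed complement genes that passed the filter and were called or did not overlap between groups, and for the 3 nearest patterns of 2 members. Other genes given with values, such as Clu, Cd93, C1qc, C3ar1 and the paralogs, and marker genes named as called were chosen after their values were seen. Nearest patterns used log2 CPM with a prior count of 2. The members and lists (5 of complement, 6 of cell type markers, 2 of inducing signals) were chosen with earlier results of these data known. Alternatives were the quasi-likelihood test, DESeq2 1.42.0, other normalizations and filters, a stricter threshold, other gene lengths (unshared length added after the data were seen) and each sample left out.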

Additional observations from a re-analysis of the deposited data

How the results depend on the processing

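No paired analysis was possible because the sample labels give no replicate number that both groups share, although the groups may come from the same mice. The number of members called was 0 with exactTest, 1 with DESeq2 (C4b), 2 when each sample had to hold 10 counts or more (C1ra, adjusted p = 0.0998, and C4b, adjusted p = 0.052) and 0 to 1 with 1 sample left out (C1ra without TIC replicate 1, C4b without TIC replicate 3). The quasi-likelihood test, RLE size factors, library size alone, no filter and a threshold of 0.05 gave 0. Among the other complement genes 1 was called in every setting, apart from the fit without TIC replicate 1, which called 2 (Thbd and Cd93). Over all tested genes 189 were called, but 50 by the quasi-likelihood test, 306 by DESeq2, 112 without the filter, 116 at a threshold of 0.05 and 72 to 323 with 1 sample left out. With 10 counts or more in each sample, 270 of 8565 tested genes were called, and 7 members were tested. The log2 fold change kept its sign in all alternatives for 7 members, from 0.93 to 1.86 for C1ra, 0.77 to 1.21 for C4b, 0.99 to 1.45 for Serping1 and 0.32 to 2.79 for C1s1. Cd55 ranged from −0.50 to 0.28 and turned positive only without TIC replicate 2 (0.28). The cause of these shifts was not tested. The longest transcript in place of all exons left the order by length as it was, and the unshared exon length moved 6 members by 1 rank.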

Other observations

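The 3 chains of C1q were unequal. Per length of exons, C1qa had 42.7 CPM per kb over the 6 samples, C1qb 3.75 and C1qc 4.50. C1qa had at least 213 counts in every sample, whereas C1qb had 0 counts in 2 samples. None of the 3 genes shares exonic bases or 50-base words with another annotated gene.

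Vtn, which encodes vitronectin, an inhibitor of the terminal pathway, spread within both groups, with 34.3, 2.04 and 3.15 CPM in the other tumor cells and 22.1, 4.20 and 21.8 CPM in TICs. C5ar2, a receptor of the C5a fragment, had 30, 54 and 32 counts in the other tumor cells and 1, 1 and 69 counts in TICs.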
